A study of Mus musculus with 6 samples.

Results

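The genes analyzed here are 9 genes of beta-adrenergic and cAMP signalling, picked by gene symbol from the 21776 genes of the deposited table. They are the receptor genes *Adrb1*, *Adra1a* and *Adra1b*, the adenylyl cyclase genes *Adcy5* and *Adcy6*, the phosphodiesterase genes *Pde3a* and *Pde4d*, the protein kinase A (PKA) gene *Prkaca* and the anchoring protein gene *Akap6*. All 9 were found in the table, and all 9 passed the filter on low values. They were measured by stranded sequencing of total RNA, as 1 library each from the mouse hearts of 3 *Trdn-as* KO and 3 WT animals. The long non-coding RNA *Trdn-as* runs antisense to *Trdn*, which encodes triadin of the calcium release complex. In the KO mice, a polyA signal inserted into its first exon by Cas9 editing of embryonic stem cells blocked its transcription. The series record speaks of deficiency in cardiomyocytes, whereas the inserted signal, by the study's methods, is present in every cell of the animal. The mice were homozygous and backcrossed to C57BL/6, and no drug treatment of the sequenced hearts is given in the sources used here. The series title calls the hearts adult, sex was not part of the design, and the age of the sequenced mice and the number of edited stem cell clones behind the line are not given in the sources used here.

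The beta1 receptor encoded by *Adrb1* binds noradrenaline and adrenaline, activates the stimulatory G protein and thereby the membrane-bound adenylyl cyclases, which make cAMP. Cyclic AMP releases the catalytic subunits of PKA, which phosphorylate calcium channels, ryanodine receptors, phospholamban and sarcomere proteins, so that the heart beats faster, contracts more strongly and relaxes sooner. Phosphodiesterases degrade cAMP, and A-kinase anchoring proteins hold the kinase and the phosphodiesterases next to their substrates. The alpha1 receptors act through another G protein and phospholipase C. The study injected its mice with isoproterenol, an agonist of beta receptors, which raises the question whether the RNA of the pathway itself differed between KO and WT hearts.

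The 6 libraries held an estimated 2.59 to 3.62 M counted reads. The labels were checked by the edited gene. *Trdn-as* (listed as AC157017.2) had normalized read counts of 1, 0 and 1 in KO replicates 1 to 3 and of 690, 773 and 688 in WT replicates 1 to 3. *Trdn* had 2489, 2381 and 2551 in the KO and 1541, 1541 and 1516 in the WT group. The 7 cardiomyocyte markers *Myh6*, *Tnnt2*, *Tnni3*, *Actc1*, *Myl2*, *Ttn* and *Ryr2* were above 0 in every library, which fits the labelled tissue. Values given for a gene in the following are normalized read counts, in the order of replicates 1 to 3. Since each library holds RNA of a whole tissue, fewer cells of a type and less RNA per cell cannot be told apart.

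A common way for cAMP to reach genes is the cAMP response element (CRE), TGACGTCA, and its shorter core TGACG (here the core motif), to which transcription factors phosphorylated by PKA bind. Promoter windows from 250 bases before to 50 bases after the RefSeq start (GRCm38.p6) were matched by symbol for 6 of the 9 genes, as 8 windows. *Adra1a*, *Adcy6* and *Pde3a* were not matched. The full element was in 0 of the 8 windows, against 1.79% of all 32851 windows in the RefSeq table. The core motif, searched on both strands as TGACG or CGTCA, was in 2 of the 8 windows, against 20.8% of all windows, and every full element holds 2 overlapping core motifs. The windows that hold it, of *Adrb1* (chr19:56721867-56722166, plus strand) and of *Prkaca* (chr8:83972728-83973027, plus strand), are shown with the core motifs in capitals. The *Pde4d* window (chr13:108653927-108654226, plus strand) is shown beside them because *Pde4d* is the member whose KO and WT values did not overlap, and it holds 0 core motifs. It is the only window matched for *Pde4d*, which has several promoters, and the others were not searched. The *Adrb1* window ends 206 bases before the start that the deposited table gives the gene, since RefSeq places the start further upstream. A match is a description of these letters and not a binding site.

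Adrb1: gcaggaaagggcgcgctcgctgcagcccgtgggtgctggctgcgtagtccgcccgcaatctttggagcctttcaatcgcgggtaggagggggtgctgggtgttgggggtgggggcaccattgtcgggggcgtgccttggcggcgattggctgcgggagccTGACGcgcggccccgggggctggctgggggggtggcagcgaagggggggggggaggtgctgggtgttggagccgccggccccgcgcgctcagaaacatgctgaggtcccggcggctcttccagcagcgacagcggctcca

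Prkaca: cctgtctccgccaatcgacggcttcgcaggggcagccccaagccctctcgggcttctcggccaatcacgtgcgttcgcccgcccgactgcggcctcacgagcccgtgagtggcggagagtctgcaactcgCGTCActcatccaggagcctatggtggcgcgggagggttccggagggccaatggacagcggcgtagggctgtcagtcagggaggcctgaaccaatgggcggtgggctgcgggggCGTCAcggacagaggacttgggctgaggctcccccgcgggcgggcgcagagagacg

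Pde4d: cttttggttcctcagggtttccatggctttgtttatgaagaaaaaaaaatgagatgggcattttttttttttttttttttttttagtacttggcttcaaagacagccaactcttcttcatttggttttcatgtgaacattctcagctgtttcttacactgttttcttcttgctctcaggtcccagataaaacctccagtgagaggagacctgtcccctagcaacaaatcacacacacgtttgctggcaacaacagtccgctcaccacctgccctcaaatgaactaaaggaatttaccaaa

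The first comparison asked whether any of the 9 genes differed between KO and WT hearts. None passed the test after adjustment, which does not show that their levels were equal. The number of members past an adjusted p of 0.05 (limma, Benjamini-Hochberg over 13753 genes) was 0 of 9, against 0.0291% of all genes tested. At an unadjusted p under 0.05 there were 2 of 9, *Pde4d* and *Adcy6*, both with lower values in KO, against 5.74% of all genes tested in either direction, 2.8% lower and 2.94% higher. This count was 0 with KO replicate 3 left out, 1 with KO replicate 2, WT replicate 1 or WT replicate 2 left out, and 4 with WT replicate 3 left out. The count over all genes tested, 790, moved in the same fits. It was 1136, 638 and 516 without KO replicates 1, 2 and 3, and 595, 647 and 1183 without WT replicates 1, 2 and 3. Groups without overlap were found for 1 of 9, *Pde4d*, against 9.07% of all genes tested, 4.44% with all KO values below and 4.64% with all KO values above. Of the 9 genes, 5 had a lower and 4 a higher fitted mean in KO, and 49.4% of all genes tested were lower. The median log2 fold change was -0.06 over the 9 genes and 0.00 over all genes tested. Across the 9 genes, the 95% intervals of the fold change, KO over WT on the log2(value + 1) scale, ran from 0.789 at the lowest to 1.253 at the highest.

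**Figure D1:**
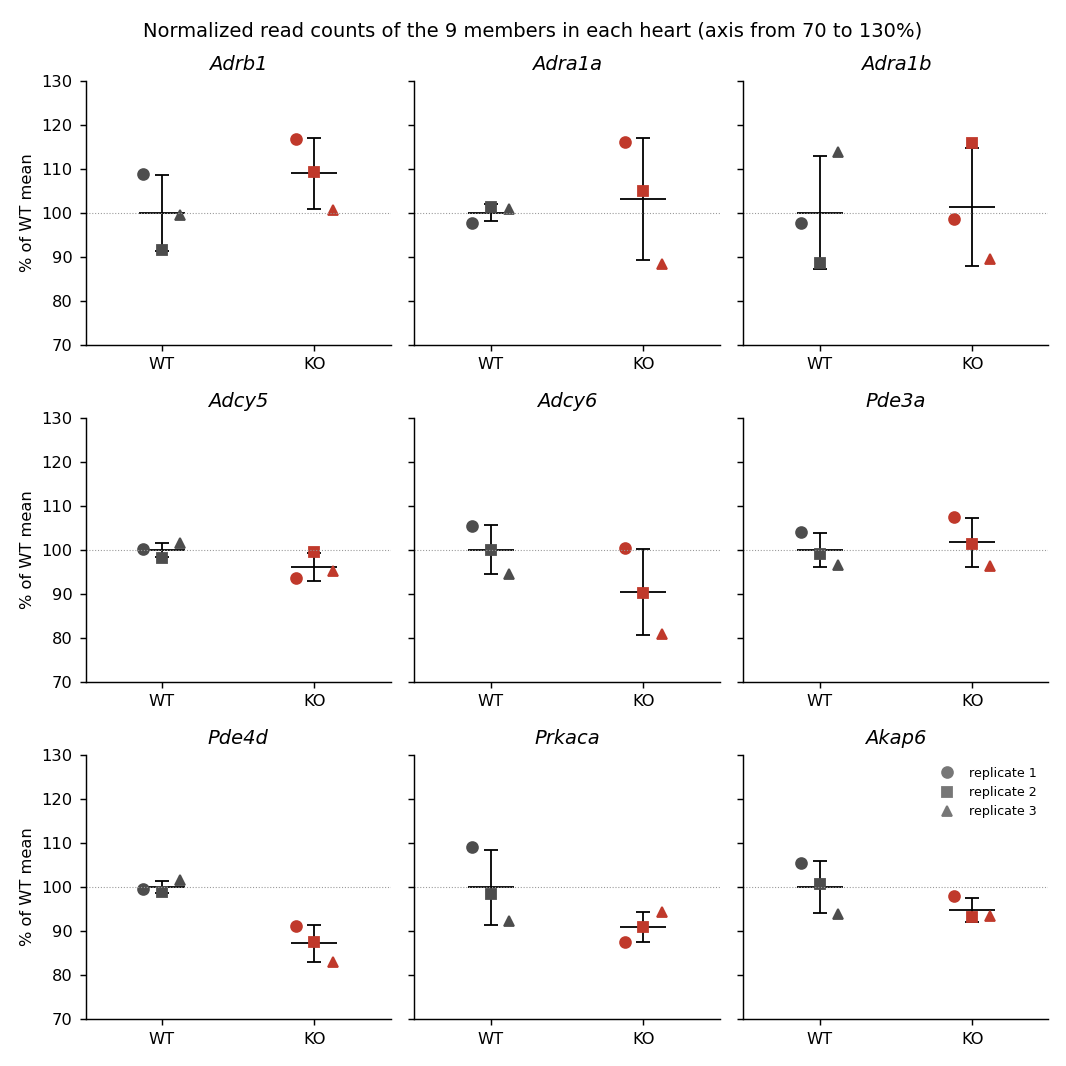
Normalized read counts of the 9 genes in each heart, as a percentage of the WT mean of the gene on a vertical axis that runs from 70 to 130%. Circles, squares and triangles are replicates 1, 2 and 3, and the bars are the mean and SD (n = 3). The groups overlap in 8 panels, and in the *Pde4d* panel all KO hearts (337 to 371) sit below all WT hearts (402 to 413).

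**Figure D2:**
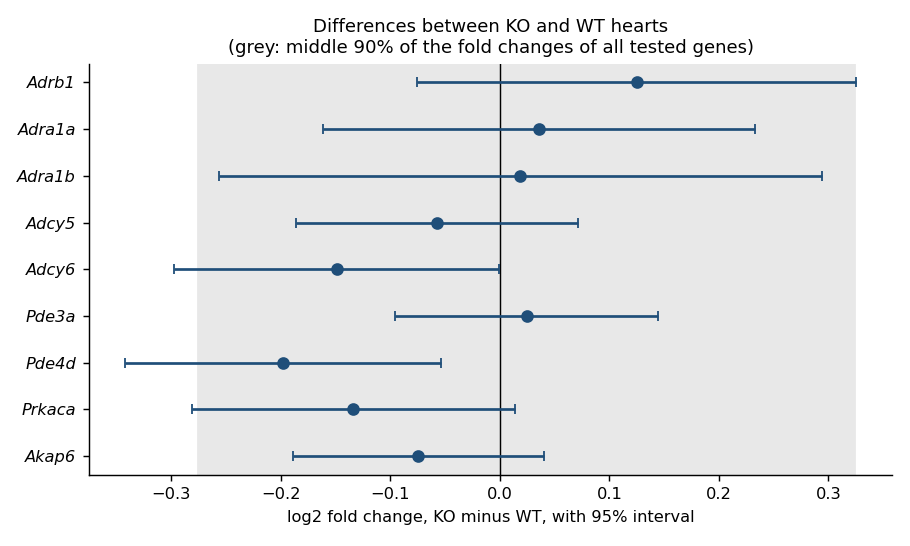
Log2 fold change of each gene, KO minus WT, with its 95% interval from limma. The grey band holds the middle 90% of the fold changes of all genes tested, from -0.28 to 0.32. The intervals of *Pde4d* and *Adcy6* exclude 0 before adjustment, and that of *Adcy6* does so narrowly (fold 0.814 to 0.9997).

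Among the receptors, *Adrb1* (ENSMUSG00000035283), the main beta receptor gene of ventricular muscle, is encoded on chromosome 19 (plus strand, 56722372 to 56724862, GRCm38). Its normalized read counts were 203, 190 and 175 in the KO group (189 ± 14.0) and 189, 159 and 173 in the WT group (174 ± 15.0; mean ± SD, n = 3). The highest value was in a KO heart and the lowest in a WT heart, but the groups overlapped. It gave a log2 fold change of 0.12 (SE 0.10; adjusted p 0.907, limma), with an interval of 0.949 to 1.253 as a fold. With single hearts left out, the log2 fold change ran from 0.06 without WT replicate 2 and 0.07 without KO replicate 1 to 0.18 without KO replicate 3 and 0.19 without WT replicate 1, with unadjusted p-values from 0.08905 to 0.562 (limma).

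The alpha1A receptor gene *Adra1a* (ENSMUSG00000045875; chromosome 14, plus strand, 66635251 to 66771168) counted 260, 235 and 198 in the KO and 219, 227 and 226 in the WT group. Its KO hearts spanned both sides of the WT values, with a mean of 231 ± 31.2 against 224 ± 4.36 (SD, n = 3). The fold change was 0.04 on the log2 scale (SE 0.09; adjusted p 0.982, limma), with an interval of 0.894 to 1.175 as a fold. *Adra1b* (ENSMUSG00000050541; chromosome 11, minus strand, 43774606 to 43901210), the alpha1B receptor gene, was the least counted member, with 97, 114 and 88 in the KO and 96, 87 and 112 in the WT group. Its means of 99.7 ± 13.2 and 98.3 ± 12.7 (SD, n = 3) differed by less than the spread within either group. Its log2 fold change was 0.02 (SE 0.13; adjusted p 0.995, limma), and its interval, 0.837 to 1.23 as a fold, was the widest of the 9. The fitted direction of both alpha1 receptor genes turned when 1 library was left out. *Adra1a* was at -0.05 without KO replicate 1, and *Adra1b* at -0.08 without KO replicate 2 and -0.06 without WT replicate 2.

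Adenylyl cyclases 5 and 6 are the closely related, calcium-inhibited cyclases that make most cAMP in cardiomyocytes. *Adcy5* (ENSMUSG00000022840; chromosome 16, plus strand, 35154877 to 35305737) counted 532, 566 and 541 in the KO and 570, 558 and 577 in the WT group. The means were 546 ± 17.6 and 568 ± 9.61 (SD, n = 3), and KO replicate 2 lay within the WT range. Its log2 fold change was -0.06 (SE 0.06; adjusted p 0.944, limma), with an interval of 0.879 to 1.05 as a fold.

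*Adcy6* (ENSMUSG00000022994; chromosome 15, minus strand, 98589994 to 98607633) counted 1015, 911 and 818 in the KO group (915 ± 98.6) and 1067, 1012 and 955 in the WT group (1011 ± 56.0; mean ± SD, n = 3). KO replicate 1 lay among the WT hearts, and KO replicate 3 was the lowest of all 6. The log2 fold change was -0.15 (SE 0.07), with an unadjusted p of 0.0493 that became an adjusted p of 0.851 (limma). The difference from WT rested on single hearts. The unadjusted p was 0.3496 without KO replicate 3, where the log2 fold change was -0.07, and 0.00422 without KO replicate 1, where it was -0.23 (limma). Of the 6 fits with a heart left out it was under 0.05 in 2, the other being the fit without WT replicate 3. At this depth, counting error alone gives a coefficient of variation of 3.21% for *Adcy6* in 1 library, and the measured values were 10.8% in KO and 5.54% in WT. Exons of *Adcy6* share 605 bases with Gm29331 on the opposite strand, and those of *Pde3a* share 741 bases with Gm28523. The authors counted reads by strand, so those of the opposite gene were kept apart, and no member shares exons with a gene on its own strand.

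Phosphodiesterase 3A, which cGMP inhibits, and phosphodiesterase 4D, which is specific for cAMP and is held at the ryanodine receptor and the beta receptors, are major cAMP-degrading enzymes of the heart. *Pde3a* (ENSMUSG00000041741; chromosome 6, plus strand, 141249269 to 141507448) counted 1472, 1387 and 1320 in the KO and 1425, 1358 and 1323 in the WT group. The 2 groups covered nearly the same range, with means of 1393 ± 76.2 and 1369 ± 51.8 (SD, n = 3). The log2 fold change was 0.02 (SE 0.06; adjusted p 0.979, limma) with an interval of 0.936 to 1.11 as a fold, and it was -0.02 without KO replicate 1 and 0.06 without KO replicate 3.

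*Pde4d* (ENSMUSG00000021699; chromosome 13, plus strand, 108654177 to 109953461) counted 371, 356 and 337 in the KO group (355 ± 17.0) and 405, 402 and 413 in the WT group (407 ± 5.69; mean ± SD, n = 3). All KO values were below all WT values, and the ratio of the means was 0.872. The log2 fold change was -0.20 (SE 0.07), with an interval of 0.789 to 0.964 as a fold. Its unadjusted p of 0.00975, undercut by 1.2% of all genes tested, became 0.803 after adjustment (limma), so the difference did not pass. Over the 15 alternatives, the log2 fold change stayed between -0.23 and -0.16 and the adjusted p between 0.347 and 0.9995 (limma). The unadjusted p was under 0.05 in 14 of the 15 and 0.0582 without KO replicate 3 (limma). The WT hearts were closer to each other than counting allows on average, with a coefficient of variation of 1.40% in WT and 4.80% in KO against 5.11% from counting error in 1 library. GENCODE M21 gives the gene 20 transcripts, 12 of them protein coding, from several promoters, and a count per gene does not separate them.

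*Prkaca* (ENSMUSG00000005469; chromosome 8, plus strand, 83972993 to 83996443) encodes the main catalytic subunit of PKA. It counted 477, 495 and 514 in the KO group (495 ± 18.5) and 595, 536 and 503 in the WT group (545 ± 46.6; mean ± SD, n = 3). KO replicate 3 lay above WT replicate 3, so the groups overlapped. The log2 fold change was -0.13 (SE 0.07; adjusted p 0.854, limma), with an interval of 0.823 to 1.01 as a fold. WT replicate 1 carried much of the difference, as the log2 fold change was -0.07 without it and -0.19 without WT replicate 3. A correction for read density, which subtracts the trend of fold changes over reads per exonic kilobase, moved it to -0.07.

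*Akap6* (ENSMUSG00000061603; chromosome 12, plus strand, 52699383 to 53155599) encodes the muscle anchoring protein that places PKA and phosphodiesterase 4D at the nuclear envelope of cardiomyocytes. It was the most counted member, with 3117, 2965 and 2970 in the KO and 3354, 3202 and 2985 in the WT group. WT replicate 3 lay within the KO range. The means were 3017 ± 86.4 and 3180 ± 185 (SD, n = 3), and the log2 fold change was -0.07 (SE 0.05; adjusted p 0.905, limma), the smallest SE of the 9. The fold change was -0.12 without WT replicate 3, -0.04 without WT replicate 1 and -0.01 under the correction for read density. Its interval was 0.877 to 1.03 as a fold.

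The second question was whether the balance between related genes shifted within a heart. Such ratios do not depend on the scaling between libraries. The ratio of *Pde3a* to *Pde4d* reads was 3.97, 3.90 and 3.92 in the KO group (3.93 ± 0.0368) and 3.52, 3.38 and 3.20 in the WT group (3.37 ± 0.158; mean ± SD, n = 3). All KO hearts had a higher ratio than all WT hearts, by 16.6% on average. The exact two-sided permutation test gave p = 0.1, the smallest that 3 hearts against 3 allow, and 0.4 after adjustment over the 4 ratios. The ratio follows from the values of *Pde4d* already described and is not a separate line of evidence. The ratio of *Adcy5* to *Adcy6* was 0.602 ± 0.0706 in KO and 0.563 ± 0.0365 in WT hearts (SD, n = 3; exact permutation p = 0.5). That of *Adra1a* to *Adra1b* was 2.33 ± 0.317 against 2.30 ± 0.296 (SD, n = 3; exact permutation p = 0.8). The ratio of *Prkaca* to *Prkar1a*, the gene of a regulatory subunit that holds the kinase inactive, was 0.387 ± 0.0187 in KO and 0.396 ± 0.00221 in WT hearts (SD, n = 3; exact permutation p = 0.7). The groups overlapped in these 3 ratios, all with an adjusted p of 0.8.

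**Figure D3:**
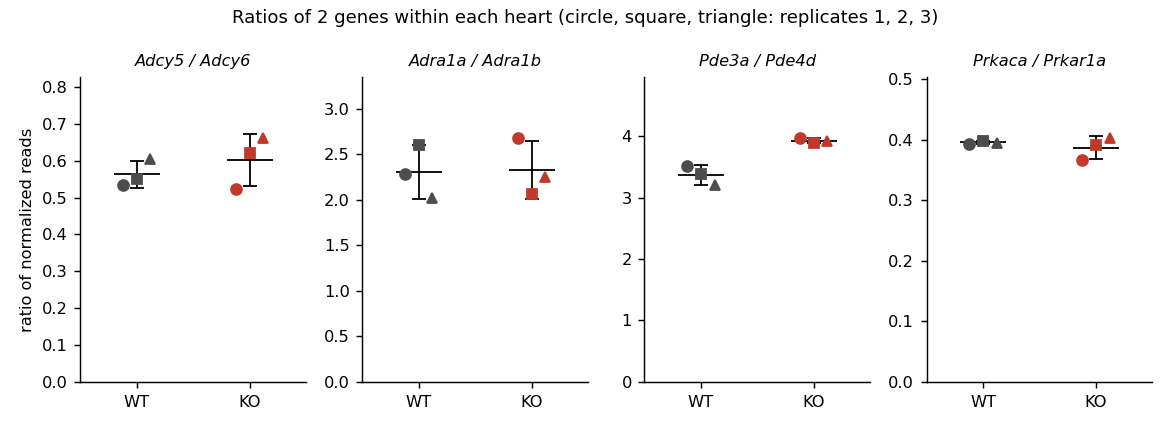
Ratio of the normalized read counts of 2 genes in each heart, on axes that start at 0, with the mean and SD (n = 3). Only for *Pde3a* over *Pde4d* are all KO hearts (3.90 to 3.97) above all WT hearts (3.20 to 3.52).

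Levels were compared between the genes as normalized reads per kilobase of annotated exons. *Prkaca* and *Akap6* were the most abundant, at 209 ± 16.8 and 209 ± 10.6 normalized reads per kilobase (SD over 6 hearts), and their order was not distinguishable, since *Prkaca* was the higher in 3 of 6 hearts. Below them came *Adcy6* at 142 ± 13.1, *Pde3a* at 108 ± 4.69, *Adcy5* at 77.6 ± 2.44, *Adrb1* at 53.7 ± 4.60 and *Pde4d* at 31.7 ± 2.55. From *Akap6* to *Pde4d*, each gene was above the next in 6 of 6 hearts. The lengths came from GENCODE M21, whose coordinates differ from those of the deposited table for 4 of the 9 genes, *Adrb1*, *Adcy5*, *Adcy6* and *Pde4d*. With exons limited to the span of each gene in the table, *Adrb1* was at 72.9 ± 6.25 (SD over 6 hearts) and below *Adcy5* in 5 of 6 hearts, so these neighbours were not clearly ordered. *Adcy6* was then at 149.6, *Adcy5* at 77.6 and *Pde4d* at 32.5, and the order of the means was kept. The ends of the order were close, with *Pde4d* above *Adra1b* (29.3 ± 3.43) in 5 of 6 hearts and *Adra1b* above *Adra1a* (26.1 ± 2.32) in 4 of 6. Among all genes tested, *Prkaca* and *Akap6* had a level above 97.7% of genes and *Adra1a* above 50.4%. Exons of all annotated transcripts were counted as length, including any that the heart does not use.

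**Figure D4:**
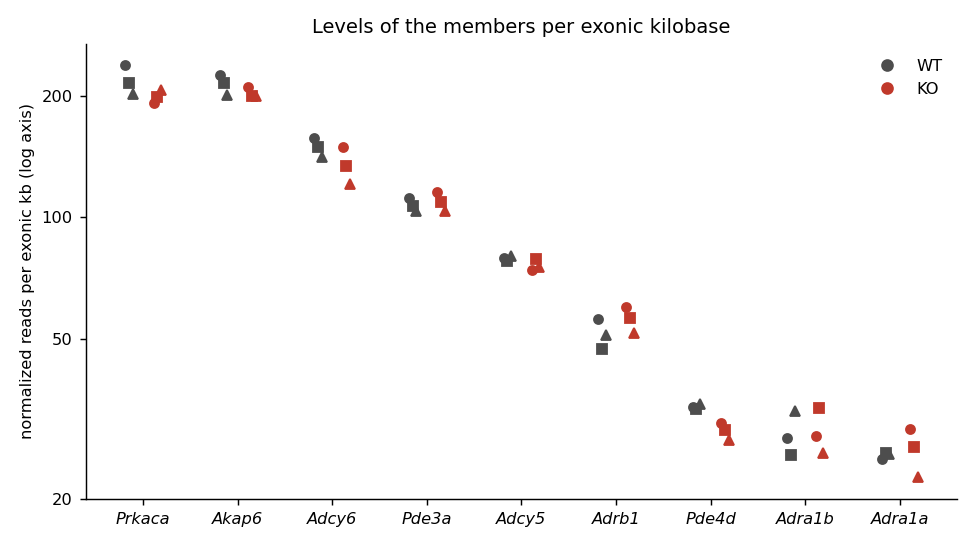
Normalized reads per exonic kilobase of the 9 genes in the 3 WT and 3 KO hearts, on a log axis, ordered by the mean over the 6 hearts. Lengths are those of GENCODE M21, with which *Adrb1* lies lower (53.7) than with the span of the deposited table (72.9). Levels span from 209 for *Prkaca* to 26.1 for *Adra1a*, and KO and WT symbols lie close together at every gene.

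The ranks of single hearts within their group were counted over the members. KO replicate 1 was the highest KO heart in 6 of the 9 genes and KO replicate 3 the lowest in 6 of 9, while WT replicate 1 was the highest WT heart in 5 of 9. The same shares over all genes tested were not counted, so nothing particular to the members is read from these ranks. The patterns over the 6 hearts were also compared with those of 13744 other tested genes, by the root mean square difference of log2 values centred on each gene's mean. The most alike were *Ocel1* to *Adrb1*, *Fis1* to *Adra1a*, *Nr1h3* to *Adra1b*, *Vps8* to *Adcy5*, *Mast2* to *Adcy6*, *Kxd1* to *Pde3a*, *Aen* to *Pde4d*, *Eno3* to *Prkaca* and *Kif1c* to *Akap6*. *Aen* counted 147, 141 and 140 in the KO and 161, 158 and 166 in the WT group, a difference of 0.03 from *Pde4d* on the log2 scale. With 6 hearts and this many genes, such likeness is a description.

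The third comparison took the rest of the pathway, as 11 lists, of which 109 genes were tested, 9 were below the filter and 5 were not analyzed here. The number past an adjusted p of 0.05 (limma) was 0 of 109, and those named with an unadjusted p under 0.05 had adjusted p-values from 0.689 to 0.851 (limma). At an unadjusted p under 0.05 there were 14, with 4 higher and 10 lower in KO, or 12.8% against 5.74% of all genes tested. Lower fitted means in KO were found for 73 of 109 genes, or 67.0%, against 49.4% of all genes tested, with medians of -0.03 and 0.00 on the log2 scale. Under scaling to equal totals, 59 of the 109 were lower. That scaling moved genes outside these lists upward too, as *Adrb1* from 0.12 to 0.15. The share of all genes tested that were lower under it was not counted, so 49.4% is not its background. Single hearts moved the count of 14 widely. It was 4 with WT replicate 1 left out, 8 with KO replicate 3 or WT replicate 2 left out, and 17 with WT replicate 3 left out. Of the 14 genes, *Fos* alone had an unadjusted p under 0.05 in all 15 alternatives (limma), and each of the others lost it in at least 1 fit with a heart left out.

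**Figure D5:**
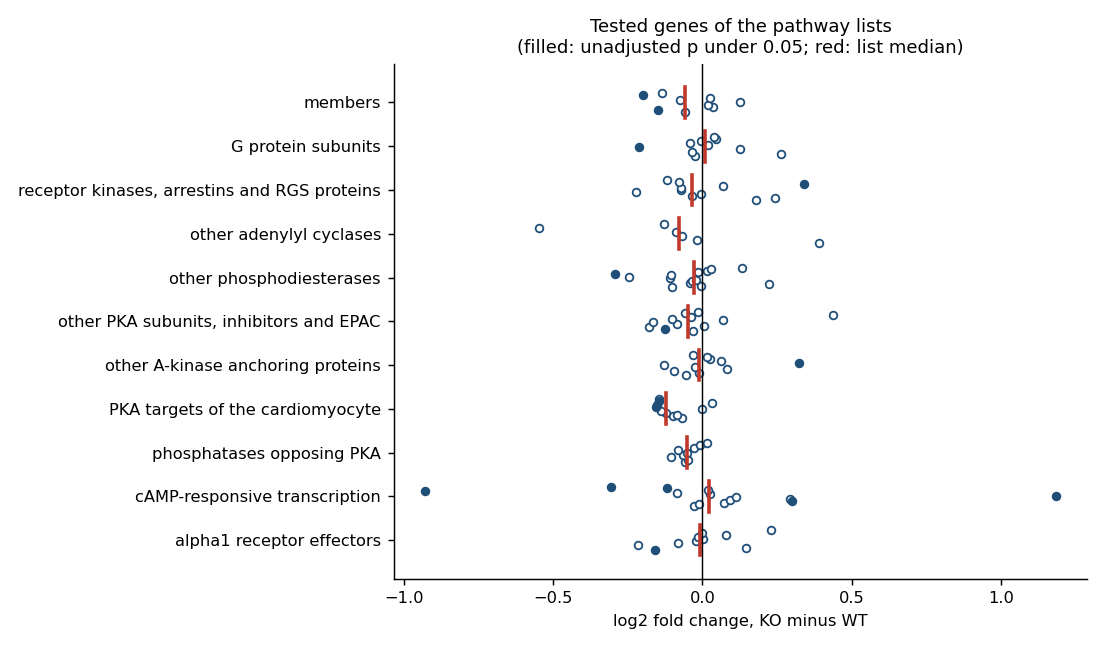
Log2 fold change, KO minus WT, of the 9 members and of every tested gene of the pathway lists with more than 1 tested gene. Filled points have an unadjusted p under 0.05 (limma) and red bars are list medians, which run from -0.12 for the PKA targets to 0.02 for cAMP-responsive transcription.

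Among other adrenoceptor genes, *Adrb3*, *Adra1d*, *Adra2b* and *Adra2c* were below the filter, and *Adra2a* was not analyzed here. Among 10 G protein subunits, 5 were higher and 5 lower. The stimulatory alpha subunit gene *Gnas* counted 988, 964 and 947 in the KO and 1094, 998 and 903 in the WT group. *Gnb1*, the most abundant of the list per kilobase, counted 579, 596 and 583 against 601, 614 and 549. *Gnao1*, of the inhibitory Go protein, counted 220, 228 and 198 against 249, 239 and 260, with no overlap, a log2 fold change of -0.21 and an unadjusted p of 0.0206 (limma), which was 0.12 without KO replicate 3 and 0.0682 without WT replicate 3.

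Receptor kinases, arrestins and RGS proteins end or dampen receptor signalling, and 4 of the 11 were higher and 7 lower. The kinase genes *Grk2* (303, 249 and 289 in KO, 286, 284 and 289 in WT) and *Grk5* (253, 271 and 196 against 240, 244 and 267) overlapped between the groups. *Rgs4*, whose protein speeds the shutdown of Gi and Gq, counted 171, 213 and 206 in the KO and 130, 164 and 173 in the WT group, a log2 fold change of 0.34 with an unadjusted p of 0.00727 (limma). Without WT replicate 1, *Rgs4* was at 0.22 with an unadjusted p of 0.0702 (limma). *Rgs5*, a pericyte and smooth muscle gene and the most abundant of the list, had 1602 to 1717 reads in KO and 1635 to 1960 in WT hearts.

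Of the 6 other adenylyl cyclases tested, 1 was higher and 5 were lower, with 0 at an unadjusted p under 0.05. *Adcy9*, the most abundant of them per kilobase, counted 419, 432 and 416 in the KO and 493, 436 and 459 in the WT group, which did not overlap (unadjusted p 0.0724, limma). *Adcy2* and *Adcy10* were below the filter. Of 14 other phosphodiesterases tested, 4 were higher and 10 lower. *Pde4b*, a close relative of *Pde4d*, counted 333, 336 and 351 in the KO and 346, 383 and 372 in the WT group, a log2 fold change of -0.11 with an unadjusted p of 0.143 (limma). *Pde4a* counted 376, 381 and 364 against 366, 378 and 393, at -0.02. *Pde1c*, the most abundant of the list, counted 1232, 1164 and 1136 against 1230, 1239 and 1168. *Pde7a* counted 350, 303 and 231 against 376, 367 and 328, or -0.29 on the log2 scale, with an unadjusted p of 0.0142 (limma). *Pde7a* was at -0.13 without KO replicate 3, with an unadjusted p of 0.179 (limma), and at -0.43 without KO replicate 1. *Pde11a* was below the filter and *Pde2a* was not analyzed here.

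Among the other PKA subunits, PKA inhibitors and cAMP-binding proteins, 3 of 12 were higher and 9 lower. The second catalytic subunit gene *Prkacb* counted 574, 620 and 624 in the KO and 575, 587 and 569 in the WT group, at 0.07 on the log2 scale. *Prkar1a*, the most abundant of the list, counted 1302, 1263 and 1276 against 1512, 1347 and 1272, at -0.10. *Pkia*, of a PKA inhibitor, counted 1030, 986 and 952 against 1143, 1044 and 1053, with no overlap, a log2 fold change of -0.13 and an unadjusted p of 0.0452 (limma). *Pkia* was at -0.08 without WT replicate 1, with an unadjusted p of 0.166 (limma), and at -0.05 under the correction for read density. *Prkar1b* was below the filter. Of 11 other anchoring protein genes, 5 were higher and 6 lower. *Akap1*, the most abundant, counted 701, 712 and 673 against 726, 698 and 743. *Akap5* counted 178, 144 and 252 against 153, 153 and 140, where KO replicate 3 stood far above the other hearts, with an unadjusted p of 0.0312 (limma). Its log2 fold change of 0.32 was 0.11 without KO replicate 3, with an unadjusted p of 0.382 (limma), and 0.51 without KO replicate 2. *Akap3*, *Akap4* and *Akap14* were not analyzed here.

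PKA targets of the cardiomyocyte were lower in KO for 10 of 11 tested genes, against 49.4% of all genes tested, with a median of -0.12 on the log2 scale. At an unadjusted p under 0.05 there were 3, all lower (limma), or 27.3% against 2.8% of all genes tested lower in KO. Phospholamban (*Pln*), the brake on calcium reuptake and the most abundant of the list, counted 1956, 2046 and 2117 in the KO and 2602, 2230 and 2010 in the WT group (-0.15, unadjusted p 0.0445, limma). The ryanodine receptor gene *Ryr2* counted 9276, 9785 and 9861 against 11387, 10676 and 9991 (-0.15, unadjusted p 0.0196, limma), and *Mybpc3*, of a thick filament protein, counted 2781, 2752 and 2801 against 3494, 3131 and 2709 (-0.16, unadjusted p 0.0356, limma). WT replicate 1 was the highest heart for all 3. Without it, *Pln* was at -0.05 and *Mybpc3* at -0.07, and without WT replicate 3 they were at -0.24 and -0.25. *Ryr2* had an unadjusted p of 0.107 without KO replicate 1 and 0.0854 without WT replicate 2 (limma). The count of 3 was 0 without WT replicate 2, 1 without WT replicate 1, KO replicate 1 or KO replicate 2, 2 without KO replicate 3 and 5 without WT replicate 3. It was 0 under the correction for read density and 0 without the mean-variance trend of limma. Over all genes tested, the count was 777 under that correction and 780 without the trend, against 790. Its values with hearts left out are given with the members. Cardiomyocyte markers moved with this list. All 7 of them, of which *Ryr2* and *Tnni3* are also PKA targets, were lower in KO, 4 of them (*Myh6*, *Tnnt2*, *Ttn* and *Ryr2*) at an unadjusted p under 0.05 (limma), or 57.1%. Their summed normalized counts were 91702 to 95993 in KO and 95262 to 116884 in WT hearts, with most of each sum from *Ttn*. Their part in the result was not tested. *Ppp1r1a* was below the filter. Of 9 phosphatase genes, 1 was higher and 8 lower, with 0 at an unadjusted p under 0.05, and *Ppp1r3a*, the most abundant, counted 1974, 1944 and 1932 against 2036, 1984 and 2096, which did not overlap.

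The genes of cAMP-responsive transcription scattered in both directions, with 8 of 14 higher, 6 lower and 5 (35.7%) at an unadjusted p under 0.05 (limma), against 5.74% of all genes tested. The count of 5 was 2 without WT replicate 1 and 3 without KO replicate 2 or WT replicate 2. Over all genes tested, the count of 790 was 595, 638 and 647 in those fits, in this order. *Fos* counted 44, 19 and 54 in the KO and 10, 23 and 15 in the WT group (1.184 on the log2 scale, unadjusted p 0.00215, limma), and *Crem*, of a cAMP response element modulator, counted 92, 89 and 103 against 78, 67 and 86 (0.30, unadjusted p 0.0358, limma). In the other direction, the orphan nuclear receptor gene *Nr4a3* counted 39, 20 and 19 against 86, 36 and 35 (-0.93, unadjusted p 0.00631, limma), and the kinase gene *Sik1* counted 158, 122 and 136 against 175, 184 and 155 (-0.31, unadjusted p 0.0108, limma). *Ppargc1a*, a coactivator of mitochondrial genes and the most abundant of the list, counted 1329, 1256 and 1208 against 1401, 1365 and 1349 (-0.12, unadjusted p 0.0461, limma). Without WT replicate 1, *Nr4a3* was at -0.51 with an unadjusted p of 0.1003 (limma). *Sik1* was at -0.22 without KO replicate 2 (unadjusted p 0.0689, limma), *Crem* at 0.20 without WT replicate 2 (unadjusted p 0.175, limma) and *Ppargc1a* at -0.09 without KO replicate 3 (unadjusted p 0.21, limma). *Fos*, *Nr4a3* and *Sik1* overlapped between the groups, and *Crem* and *Ppargc1a* did not. Of 10 effectors of alpha1 receptors, 4 were higher and 6 lower. *Plcb4*, the most abundant, counted 1151, 1196 and 1181 against 1158, 1270 and 1153, and *Itpr2*, of an inositol trisphosphate receptor, counted 655, 743 and 743 against 815, 741 and 831 (-0.16, unadjusted p 0.0295, limma). *Itpr2* was at -0.10 without KO replicate 1, with an unadjusted p of 0.18 (limma).

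Markers of other cells were compared in the same hearts. Endothelial markers had a higher fitted mean in KO for 6 of 6 genes, against 6965 of all 13753 genes tested. Apart from *Vwf*, their log2 fold changes ran only from 0.006 to 0.055. Their sums were 4338 to 5025 in KO and 4364 to 4770 in WT hearts. *Vwf*, of von Willebrand factor, counted 446, 576 and 491 against 365, 388 and 441, with no overlap, a log2 fold change of 0.34 and an unadjusted p of 0.00108 (adjusted p 0.551, limma). Blood markers, of globins and of *Alas2*, were lower in KO for 5 of 5 genes, with sums of 164 to 304 in KO and 151 to 423 in WT hearts. Macrophage markers were higher for 3 of 6 genes, with sums of 597 to 885 and 705 to 755, and *C1qb*, of a complement subunit, counted 78, 100 and 90 against 65, 75 and 64, with no overlap and an unadjusted p of 0.0117 (adjusted p 0.807, limma). *C1qa*, of the companion subunit, counted 74, 94 and 96 against 94, 88 and 88, at -0.04 on the log2 scale, and the other macrophage markers overlapped between the groups. Fibroblast markers were higher for 3 of 6 genes (sums of 2533 to 2843 and 2682 to 2891) and atrial markers for 3 of 6 (498 to 719 and 517 to 714). Smooth muscle and pericyte markers were higher for 3 of 7 genes, with sums of 3626 to 3842 and 3529 to 4070, and 0 of the 7 had an unadjusted p under 0.05 (limma). *Abcc9* made up most of each sum, with 2380 to 2434 in KO and 2270 to 2725 in WT hearts, so the sums largely follow this gene. The fat markers in the table summed to 14 to 67 in KO and 21 to 26 in WT hearts, and the sympathetic neuron markers in the table, *Dbh* and *Stmn2*, to 41 to 56 and 48 to 54. The sums of KO and WT hearts overlapped for every list, cardiomyocytes included. *Bmp10* of the atrial list and *Ucp1* of the fat list were at 0 in at least 1 heart. The part of these cells in the values of the pathway genes was not tested.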

How the data were processed

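Total RNA of 3 *Trdn-as* KO and 3 WT hearts was sequenced as strand-specific, single-end libraries. Per the study's methods and the submitters' processing notes, reads were trimmed (Trimmomatic 0.39), aligned to GRCm38 (STAR 2.6.1d), cleared of duplicates (Picard 2.21.1) and of multi-mapping, ribosomal and mitochondrial reads, and counted by strand on exons with featureCounts 1.6.5, leaving out reads on more than 1 gene. The authors divided the counts by DESeq2 1.18.1 size factors, and the deposited table holds this score per gene and library, rounded to whole numbers and not per gene length. Raw counts were not used here, so a test on normalized values was made.

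Values were transformed to log2(value + 1), genes with a mean of at least 10 (13753 of 21776) were tested with limma 3.58.1 in R 4.3.3 (lmFit, eBayes with trend, two-sided), and p-values were adjusted by Benjamini-Hochberg over all genes tested at a threshold of 0.05. The limma p-values rest on the spread between these hearts, which the fit draws toward that of genes with similar mean values. With 4 residual and 15.4 prior degrees of freedom, they do not measure the spread of a single gene alone. The members and lists were chosen with earlier results of these data known. Size factors, and from them reads per library (3.62, 3.31 and 3.15 M in KO and 2.59, 3.04 and 3.46 M in WT replicates 1 to 3), were estimated from whole numbers skipped or repeated in the values under 1000, so they are estimates. The counting errors given leave out PCR, because no molecular identifiers were used to tell molecules apart. Exon lengths came from GENCODE M21, which holds 99.8% of the gene identifiers but gives the same coordinates as the deposited table for 75.2% of genes and 5 of the 9 members. Ratios were tested by exact permutation over hearts. Genes named are the members, *Trdn-as* and *Trdn*, and in each list the gene with the highest level per exonic kilobase, genes with an unadjusted p under 0.05, those below the filter, and the gene most like each member. *Gnas*, *Grk2*, *Grk5*, *Pde4a*, *Pde4b*, *Prkacb* and the markers *Vwf*, *C1qb*, *C1qa* and *Abcc9* fall outside this rule and were chosen after their values were seen. One result of the lists is not reported here. The fits were tested on 5 simulated sets of data. Adjusted calls recovered 0% of changes of 1.15-fold, 2 to 12% of 1.25-fold and 42 to 68% of 1.5-fold. The ratio of the means of *Pde4d*, the largest change among the members, was 0.872. Alternatives were other scalings, filters and pseudocount, limma-voom, no trend, a replicate block, a read density correction (loess, span 0.5) and leaving out each heart.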

Additional observations from a re-analysis of the deposited data

How the results depend on the processing

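The members past an adjusted p of 0.05 stayed at 0 in all 15 alternatives, and so did the pathway genes (limma). The members at an unadjusted p under 0.05, 2 as reported, were 1 under total scaling, 1 without the mean-variance trend and 1 under the read density correction, where *Adcy6* was no longer below 0.05. Leaving out KO replicate 3 gave 0, leaving out WT replicate 3 gave 4, including *Akap6* and *Prkaca*, and leaving out KO replicate 2, WT replicate 1 or WT replicate 2 gave 1. The pathway genes at an unadjusted p under 0.05, 14 as reported, were 7 without the trend and 9 under the density correction, with a lowest value of 4 (WT replicate 1 left out) and a highest of 17 (WT replicate 3 left out). Over all genes tested, the count of 790 was 823 under total scaling, 780 without the trend and 777 under the density correction. With single hearts left out, it ran from 516 (KO replicate 3) to 1183 (WT replicate 3). The members lower in KO, 5 as reported, were 5 to 7 when single hearts were left out, and the pathway genes, 73 as reported, 64 to 79. In the same fits, the log2 fold change of *Adra1a* ran from -0.054 to 0.142, of *Adra1b* from -0.0813 to 0.116 and of *Pde3a* from -0.0158 to 0.0627, while the other 6 members kept their direction in all 15 alternatives. The difference of the *Adra1a*/*Adra1b* ratio, KO minus WT, ran from -0.147 to 0.181, that of *Prkaca*/*Prkar1a* from -0.0165 to 0.00175, that of *Adcy5*/*Adcy6* from 0.00946 to 0.0781 and that of *Pde3a*/*Pde4d* from 0.479 to 0.636. Why these values moved was not tested.

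The sample titles number the hearts and do not say whether hearts with the same number were pairs. Same-numbered KO and WT hearts correlated at 0.05, -0.07 and -0.03 across genes after removing group means. Of 6 hearts, 2 correlated best with their own number. With 3 hearts per group, these values show no sign of pairs but cannot exclude them. With a replicate block, the unadjusted p under 0.05 count was again 2 for the members and 14 for the pathway, with 0 past an adjusted p of 0.05 (limma). At about 3 M reads per library, *Adra1b* rested on at least 76.3 reads per heart, and the counting error at its mean number of reads was 9.97%. With exons limited to the span of the deposited table, an alternative chosen after seeing the data, the level of *Adrb1* moved from 53.7 to 72.9 normalized reads per kilobase, and the levels of the other 8 members moved by less than their SD.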
